A study of Mus musculus with 188 samples.

Results

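The 9 genes described here encode the core enzymes of prostaglandin and leukotriene metabolism in mouse brain slice cultures (BSCs): Pla2g4a, Ptgs1, Ptgs2, Ptges, Ptgds, Hpgds, Hpgd, Alox5 and Alox5ap. They were chosen by symbol, with earlier results of these data known, from 25655 gene identifiers counted in batch 1 and 25528 counted in batches 2 and 3. All 9 were counted in every library and passed the filter on low counts in both sets of libraries.

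Coronal BSCs from C57BL/6J mice were kept as pairs on membrane inserts and treated from day 7 of culture, and bulk mRNA was sequenced in 188 libraries. Batch 1 held untreated controls (n = 10), heme bound to albumin (heme-albumin) at 12.5, 50, 200 and 400 μM (n = 10 each) and heme bound to its scavenger hemopexin (hemeHpx) at 200 μM (n = 10), all at 24 h. The treatment tag of the 10 hemeHpx libraries names hemopexin whereas their titles name haptoglobin, and the tag and the study's methods were followed. Batches 2 and 3 held untreated controls at 24 h (n = 10) and 48 h (n = 9), hemoglobin (Hb) at 200 and 400 μM at both times (n = 10 each), Hb in complex with its scavenger haptoglobin (HbHp) at 200 μM (n = 8 at each time) and 400 μM (n = 4 at 24 h, n = 5 at 48 h), and haptoglobin alone (Hp) at 400 μM (n = 12 at 24 h, n = 11 at 48 h). Library names in batches 2 and 3 carry the prefix E1 or E2, whose meaning the labels do not give. All HbHp libraries that were kept were E2 and batch 3, all Hp libraries were batch 3, and only 3 controls at 24 h and 2 at 48 h were E2. Of these E2 controls, only 1 at 24 h and 1 at 48 h were in batch 3. The protein agents were of human origin. No other agent or allele was named for any group, and 21 libraries with conflicting or incomplete labels entered no comparison. Of these, 20 of batch 3 had titles that name the hemoglobin-haptoglobin complex and the treatment tag HbHpx. Some of them were E1, so that HbHp is confined to E2 only among the libraries kept. The labels do not say which libraries came from separate animals or inserts, so each p-value measures the spread between libraries. Adult slice cultures lose microglia during cultivation, which the study's text names as a limit of the model.

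Cytosolic phospholipase A2, encoded by Pla2g4a, frees arachidonic acid from membrane lipids. The cyclooxygenases Ptgs1, constitutive in many cells and abundant in microglia, and Ptgs2, inducible and in brain also expressed by neurons, turn it into prostaglandin H2, which Ptges converts to prostaglandin E2 and Ptgds and Hpgds convert to prostaglandin D2. Hpgd starts the inactivation of prostaglandins. Alox5, helped by the arachidonate-presenting protein Alox5ap, makes the leukotriene precursor instead. In brain, Ptgds is a product of oligodendrocytes, leptomeninges and choroid plexus, and Hpgds of microglia and other macrophages.

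The start region of Ptgs2, the member with the largest fold change, and the upstream region of Hpgd, the member that fell most at the top dose, are shown first. Sequences are from RefSeq, build GRCm38.p6, both genes on the plus strand. Chromosome numbers below refer to that build, and the read counts were made on GRCm39. Of the 9 members, 8 had a window of 250 bases before and 50 after a start site, and Pla2g4a had 2 starts. The windows were searched on both strands for 6 short motifs. CACGTG was in the window of 1 member, Ptgs2, and in 7.15% of all 32851 windows. TGACG was also in 1 member, Ptgs2, on the minus strand, and in 20.8% of all windows. These matches overlap and lie from 14 bases after the start site, in the first sequence below, where capitals mark the stretch that holds both. TGANTCA matched in Ptgds (7.81% of all windows), TATAAA in Pla2g4a and Hpgd (13.6%), and TGACGTCA (1.79%) and TGACNNNGC (12.4%) in no member. A match describes letters only.
Ptgs2, bases 9 to 28 after the start site, chr1:150100039-150100058: cactaCGTCACGTGgagtcc
Ptgs2, 250 bases upstream, chr1:150099781-150100030: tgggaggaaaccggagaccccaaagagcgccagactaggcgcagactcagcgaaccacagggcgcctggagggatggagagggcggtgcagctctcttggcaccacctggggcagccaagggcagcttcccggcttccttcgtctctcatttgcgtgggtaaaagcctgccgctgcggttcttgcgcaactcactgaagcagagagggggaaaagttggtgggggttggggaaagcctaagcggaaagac
Hpgd, 250 bases upstream, chr8:56294302-56294551: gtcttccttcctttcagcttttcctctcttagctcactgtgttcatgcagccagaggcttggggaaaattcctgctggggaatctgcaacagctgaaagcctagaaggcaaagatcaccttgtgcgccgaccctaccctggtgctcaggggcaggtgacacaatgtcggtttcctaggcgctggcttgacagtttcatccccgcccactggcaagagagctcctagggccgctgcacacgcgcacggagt

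Library depth, as total counts, was 11038484 to 44199060 in batch 1, 32626873 to 54174784 in batch 2 and 15587938 to 38839614 in batch 3. Levels are given as CPM, counts divided by the library size and put on a common scale, with sizes scaled by trimmed mean of M-values. Markers of brain tissue were present in the controls of batch 1, with summed levels of 15164 to 27617 CPM for oligodendrocytes (7 genes), 7883 to 11865 CPM for astrocytes (7 genes), 206 to 481 CPM for neurons (7 genes) and 543 to 2360 CPM for microglia (8 genes, of which Siglech was at 0 in 54 of 60 libraries). None of the 5 mast cell markers passed the filter on low counts, and each was at 0 in 47 to 54 of the 60 libraries. Slices fell into separate sets by choroid plexus: the 6 markers summed to 17.2 CPM or less in 36 libraries of batch 1 and to 102 to 3476 CPM in 24.

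Compared per kilobase of exon, Ptgds and Hpgd had the highest levels in untreated slices. The medians in the batch 1 controls were 81.9 CPM per kb for Ptgds, 72.6 for Hpgd, 12.3 for Alox5ap, 6.46 for Ptges, 6.28 for Pla2g4a, 3.50 for Hpgds, 2.78 for Ptgs1, 2.63 for Alox5 and 2.49 for Ptgs2. Of neighbors in this order, Hpgd and Alox5ap alone had ranges that did not overlap. At 24 h in batches 2 and 3, Hpgd (76.9 CPM per kb) stood above Ptgds (62.1), with overlapping ranges, and Ptgs2 was again lowest (1.94). At 48 h the order of the extremes was the same, from Hpgd at 82.2 to Ptgs2 at 1.66 CPM per kb.

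Heme-albumin raised Ptgs2 with dose and lowered the prostaglandin-inactivating enzyme Hpgd, the prostaglandin D2 synthase Hpgds and Alox5. With an adjusted p under 0.05 as the threshold, 5 of the 9 members passed the test at 200 μM, 1 higher and 4 lower, where 13.6% of all 15554 genes tested did so (6.98% higher and 6.6% lower). At 400 μM it was again 5 of 9, 2 higher and 3 lower, against 29% of all genes (14.7% higher and 14.3% lower). At 12.5 μM no member passed edgeR's quasi-likelihood test after Benjamini-Hochberg adjustment (0.045% of all genes did), none had an unadjusted p under 0.05 and DESeq2 called none. At 50 μM none passed (0.463% of all genes), 3 had an unadjusted p under 0.05 and DESeq2 called none. The median log2 fold change of the members was -0.21 at 200 μM and 0.03 at 400 μM, against -0.01 for all genes at both doses. All comparisons with control in batch 1 share the same 10 control libraries.

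Pla2g4a, which supplies arachidonate, was not called at any dose. It was 30.2 to 53 CPM (median 40.1) in controls, 33.9 to 47.4 (38.8) at 200 μM and 38.8 to 52.1 (43.5) at 400 μM, so that all ranges overlapped. Its log2 fold change was -0.05 ± 0.08 (SE) at 200 μM and 0.10 ± 0.08 at 400 μM, with a 95% interval of -0.06 to 0.25 at the higher dose.

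Ptgs2 was between 8.42 and 24.7 CPM in the 10 controls, with a median of 11.4. Libraries at 12.5 μM heme-albumin lay between 11.1 and 15.7 CPM (median 13.5) and those at 50 μM between 14 and 31 CPM (median 18.5). At 200 μM the 10 libraries were at 18.6, 20.2, 22.3, 25.3, 27.3, 34.8, 37.0, 50.1, 60.5 and 80.3 CPM. At 400 μM they were at 20.9, 33.4, 51.8, 57.3, 63.4, 64.3, 79.3, 110, 125 and 257 CPM. Thus 7 of 10 libraries at 200 μM and 9 of 10 at 400 μM stood above the highest control, while those at 12.5 μM stayed within the control range. The fitted change was 2.90-fold at 200 μM (log2 1.54 ± 0.27 SE, edgeR quasi-likelihood test, Benjamini-Hochberg adjusted p = 4.93e-05) and 6.64-fold at 400 μM (log2 2.73 ± 0.28, adjusted p = 1.4e-11). Across the 4 doses Ptgs2 rose 1.43-fold per doubling of dose (log2 slope 0.51 ± 0.05, adjusted p = 1.86e-11). The slope test called 4 of 9 members, 1 upward and 3 downward, and 23.1% of all genes (12.1% and 11%). Replicate 9 at 400 μM, the library with 257 CPM, also had the lowest summed microglia level (391 CPM) and the lowest summed astrocyte level (5531 CPM) of the 60 libraries. Without it the log2 change at 400 μM was 2.37 and was called, and over all 7 alternatives the value ran from 2.37 to 2.74.

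**Figure D1:**
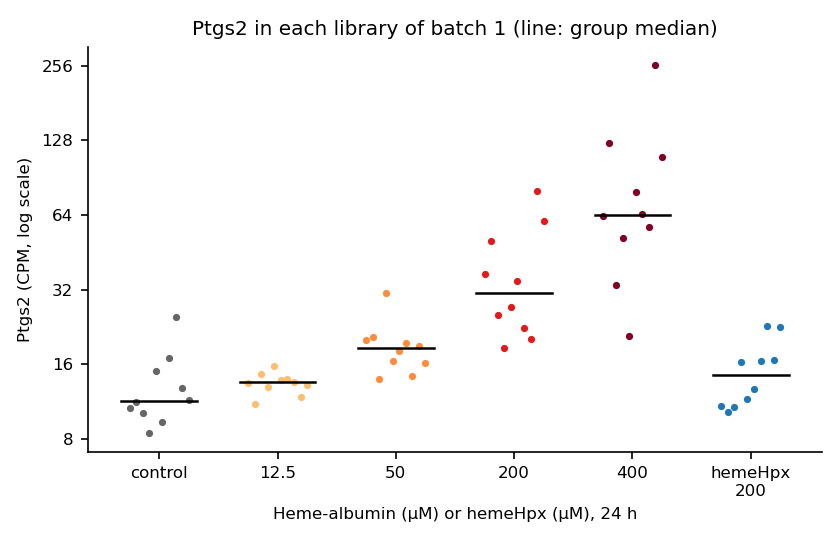
Ptgs2 in each of the 60 libraries of batch 1 at 24 h; the vertical axis is CPM on a log2-spaced axis, the horizontal axis the heme-albumin dose in μM with the control at the left and hemeHpx at the right, points are libraries and lines are group medians. Medians climb from 11.4 CPM in controls to 63.9 CPM at 400 μM heme-albumin, and hemeHpx libraries lie between 10.2 and 22.9 CPM.

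The constitutive cyclooxygenase Ptgs1 had 7.27 to 19.4 CPM in controls (median 10.8), 6.83 to 15.9 at 200 μM (10.47) and 6.40 to 22.5 at 400 μM (12.6). These ranges overlapped, and the log2 fold changes of -0.14 ± 0.19 (SE) and 0.14 ± 0.19 did not pass the test. An antisense gene, Gm43621, overlaps an exon of Ptgs1, and whether the counting used strand is not given in the sources used here.

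Ptges, the inducible prostaglandin E2 synthase, was at 13.9 to 30.04 CPM in controls (median 25.4), 19.1 to 37.3 at 200 μM (27.6) and 24.3 to 62.6 at 400 μM (33.5). At 400 μM 7 of 10 libraries stood above the highest control. It rose 1.51-fold there (log2 0.59 ± 0.16 SE, edgeR, Benjamini-Hochberg adjusted p = 0.00351) and did not pass the test at 200 μM (log2 0.20 ± 0.16, 95% interval -0.12 to 0.51).

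Both prostaglandin D2 synthases were lower at 200 μM. Hpgds was at 15.1 to 41.7 CPM in controls (median 22.5), 7.39 to 15.5 at 200 μM (11.6) and 7.64 to 16.8 at 400 μM (10.0). In 9 of 10 libraries at 200 μM and 8 of 10 at 400 μM it was below the lowest control. It fell to 0.471 of control (log2 -1.08 ± 0.20 SE, adjusted p = 9.56e-05) and 0.457 of control (log2 -1.13 ± 0.20, adjusted p = 1.18e-05; both edgeR with Benjamini-Hochberg adjustment). Ptgds was at 99.9 to 491 CPM in controls (median 135), 72.6 to 186 at 200 μM (82.5) and 49.6 to 233 at 400 μM (115). Its change passed the test at 200 μM (0.558 of control, log2 -0.84 ± 0.29, edgeR, Benjamini-Hochberg adjusted p = 0.0421) and not at 400 μM (log2 -0.44 ± 0.29, adjusted p = 0.256). Control replicate 13 had the highest Ptgds level (491 CPM, the next control 209 CPM). Without that library the log2 change at 200 μM was -0.52 and was no longer called (edgeR, Benjamini-Hochberg adjusted p = 0.223, the highest of 7 alternatives that ranged down to 0.0262).

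Markers of the 3 tissues that make Ptgds varied with its level between libraries. Over the 60 libraries of batch 1, which share treatments and slices, Pearson's r of Ptgds was 0.84 with the summed oligodendrocyte level and 0.68 with the summed leptomeningeal level. For choroid plexus, r was 0.36 within the 36 libraries at 17.2 CPM or less and 0.76 within the 24 at 102 CPM or more. Control replicate 13, highest in Ptgds, also had the highest summed choroid plexus level (3476 CPM) of the 60 libraries. In the set at 17.2 CPM or less, Ptgds was at 99.9 to 145 CPM in 7 controls. There it was at 72.6 to 93.8 CPM in 8 libraries at 200 μM and 49.6 to 80.9 CPM in 4 at 400 μM. In the set at 102 CPM or more, Ptgds was at 192 to 491 CPM in 3 controls. It was at 139 to 186 CPM in 2 libraries of that set at 200 μM and 112 to 233 CPM in 6 at 400 μM. At 200 and 400 μM heme-albumin none of the 6 choroid plexus, 7 oligodendrocyte or 7 tested leptomeningeal markers was called, with median log2 changes of -1.18, -0.12 and -0.57 at 200 μM, and the part of these tissues in the Ptgds change was not tested.

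Hpgd, 15-hydroxyprostaglandin dehydrogenase, was at 88.3 to 282 CPM in controls (median 122), 70.2 to 140 at 200 μM (78.1) and 40.5 to 91.0 at 400 μM (66.7). It was below the lowest control in 7 of 10 libraries at 200 μM and 9 of 10 at 400 μM. It fell to 0.602 of control at 200 μM (log2 -0.73 ± 0.19 SE, adjusted p = 0.00449) and to 0.444 at 400 μM (log2 -1.17 ± 0.19, adjusted p = 1.66e-06; both edgeR with Benjamini-Hochberg adjustment). Per doubling of dose the log2 change was -0.20 ± 0.03, and it was -0.18 ± 0.04 for Hpgds and -0.11 ± 0.02 for Alox5, the other members whose fall with dose passed the slope test.

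Of the leukotriene pair, Alox5 fell and Alox5ap gave no call. Alox5 was at 8.36 to 15.0 CPM in controls (median 10.8), 5.32 to 12 at 200 μM (8.48) and 5.28 to 9.15 at 400 μM (7.65). In 4 and 6 of 10 libraries it was below the lowest control. The fitted levels were 0.762 of control (log2 -0.39 ± 0.11 SE, adjusted p = 0.0115) and 0.696 of control (log2 -0.52 ± 0.11, adjusted p = 0.000187; both edgeR with Benjamini-Hochberg adjustment). Alox5ap was at 10.4 to 38.7 CPM in controls, 8.91 to 29 at 200 μM and 12.5 to 34.8 at 400 μM, with log2 fold changes of -0.21 ± 0.24 and 0.03 ± 0.24. Reads of Alox5ap and of Gm19719, antisense to one of its exons, cannot be told apart without strand.

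**Figure D2:**
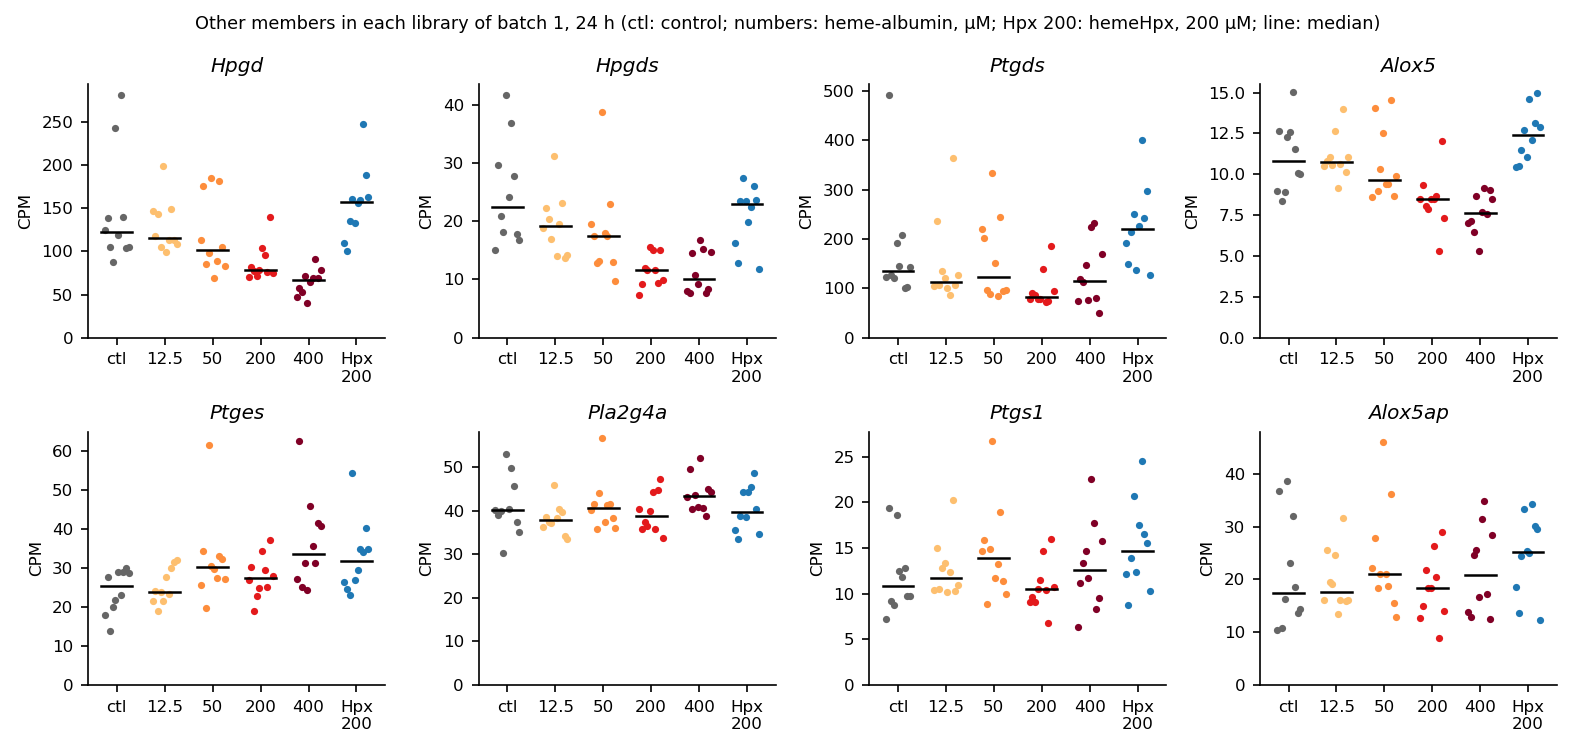
CPM of the other 8 members in each library of batch 1 at 24 h, 1 panel a gene, with control, 4 heme-albumin doses in μM and hemeHpx on the horizontal axis; points are libraries, lines are medians and each vertical axis starts at 0. Hpgd medians run from 122 CPM in controls to 66.7 CPM at 400 μM, Hpgds from 22.5 to 10.0 CPM, and Ptges from 25.4 to 33.5 CPM.

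Microglial markers moved in the same comparisons as Hpgds and Alox5. At 200 μM all 7 tested microglia markers were called lower (median log2 fold change -0.86), where 6.6% of all genes were. At 400 μM 4 of 7 were (median -0.71), against 14.3% of all genes. Their summed level was 543 to 2360 CPM in controls (median 1029), 392 to 1009 CPM at 200 μM (711) and 391 to 1317 CPM at 400 μM (760). Of the other lists, border macrophage markers were lower in 3 of 5 at 200 μM and 2 of 5 at 400 μM, and astrocyte markers in 3 of 7 and 5 of 7. No neuron marker was called at 200 μM (1 of 7 was higher at 400 μM), and no oligodendrocyte marker at either dose. In bulk tissue fewer cells of a type and less RNA per cell cannot be told apart. Over the 60 libraries, which share treatments and slices, Pearson's r with the summed microglia level was 0.87 for Hpgds, 0.87 for Alox5ap, 0.84 for Ptgs1, 0.70 for Alox5 and -0.39 for Ptgs2. Of these genes, Alox5ap and Ptgs1 were not called at 200 or 400 μM. Hpgd, for which no correlation with marker sums was computed, had r = 0.785 with Hpgds and 0.872 with Alox5 over these 60 libraries. The part of microglial or astrocyte content in the changes of Hpgds, Hpgd and Alox5 was not tested. Genes of the early activity response were called higher in 2 of 8 at 200 μM and 6 of 8 at 400 μM, against 6.98% and 14.7% of all genes. Ptgs2 was also higher at these doses, and the part of these genes in its change was not tested.

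**Figure D3:**
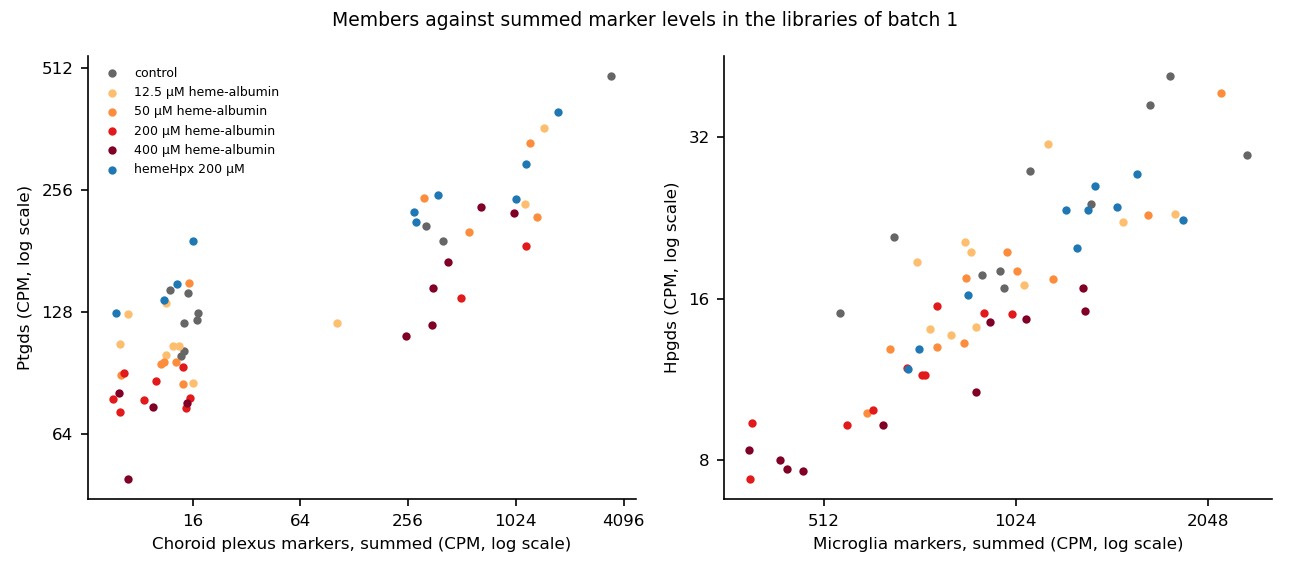
Libraries of batch 1 as points colored by group on log axes in CPM: at the left Ptgds against the summed level of 6 choroid plexus markers, at the right Hpgds against the summed level of 8 microglia markers. The left panel shows 36 libraries at 17.2 CPM or less and 24 at 102 CPM or more, and the right panel shows Hpgds rising with the microglia sum (r = 0.87).

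HemeHpx at 200 μM was compared with heme-albumin at the same heme dose. Ptgs2 was at 10.2 to 22.9 CPM with hemeHpx (median 14.5), and 8 of 10 libraries were below the lowest heme-albumin library. Ptgs2 was 0.400 of the heme-albumin level (log2 -1.32 ± 0.26 SE, edgeR, Benjamini-Hochberg adjusted p = 0.000311). The members that heme-albumin had lowered were higher: Ptgds 2.29-fold (log2 1.19 ± 0.29, adjusted p = 0.00272), Hpgd 1.78-fold (0.83 ± 0.19, 0.00105), Hpgds 1.77-fold (0.83 ± 0.20, 0.00229) and Alox5 1.47-fold (0.56 ± 0.11, 0.000215), each by edgeR. In all, 5 of 9 members passed, 4 higher and 1 lower, where 25.9% of all genes did (13% higher and 12.9% lower). Ptgs1 reached 1.40-fold (log2 0.48 ± 0.19) with an edgeR, Benjamini-Hochberg adjusted p of 0.054, and was called under 3 of 6 alternatives (0.0323 to 0.0775). Between 6 and 8 of the 10 hemeHpx libraries stood above the highest heme-albumin library for Hpgd (6), Alox5 (6), Ptgds (7) and Hpgds (8). Microglia markers were higher in 6 of 7 (median log2 fold change 0.93), border macrophage markers in 4 of 5, and astrocyte and oligodendrocyte markers in 3 of 7 each. The summed choroid plexus level was 102 CPM or more in 6 of 10 hemeHpx and 2 of 10 heme-albumin libraries. The part of these markers in the differences was not tested.

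Against untreated slices, no member passed the test with hemeHpx (8.2% of all genes did), 1 had an unadjusted p under 0.05 and DESeq2 called 1, Ptges. Ptges was at 23 to 54.4 CPM (median 31.9), 5 of 10 libraries above the highest control, with a 1.36-fold change (log2 0.44 ± 0.16 SE, edgeR, Benjamini-Hochberg adjusted p = 0.0635). It passed under 5 of 7 alternatives (adjusted p 0.0131 to 0.0886), among them the one without control replicate 13 (log2 0.47, adjusted p = 0.0377). The 95% interval of the Ptgs2 change was -0.31 to 0.74 on the log2 scale, and that of Hpgd -0.26 to 0.46.

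**Figure D4:**
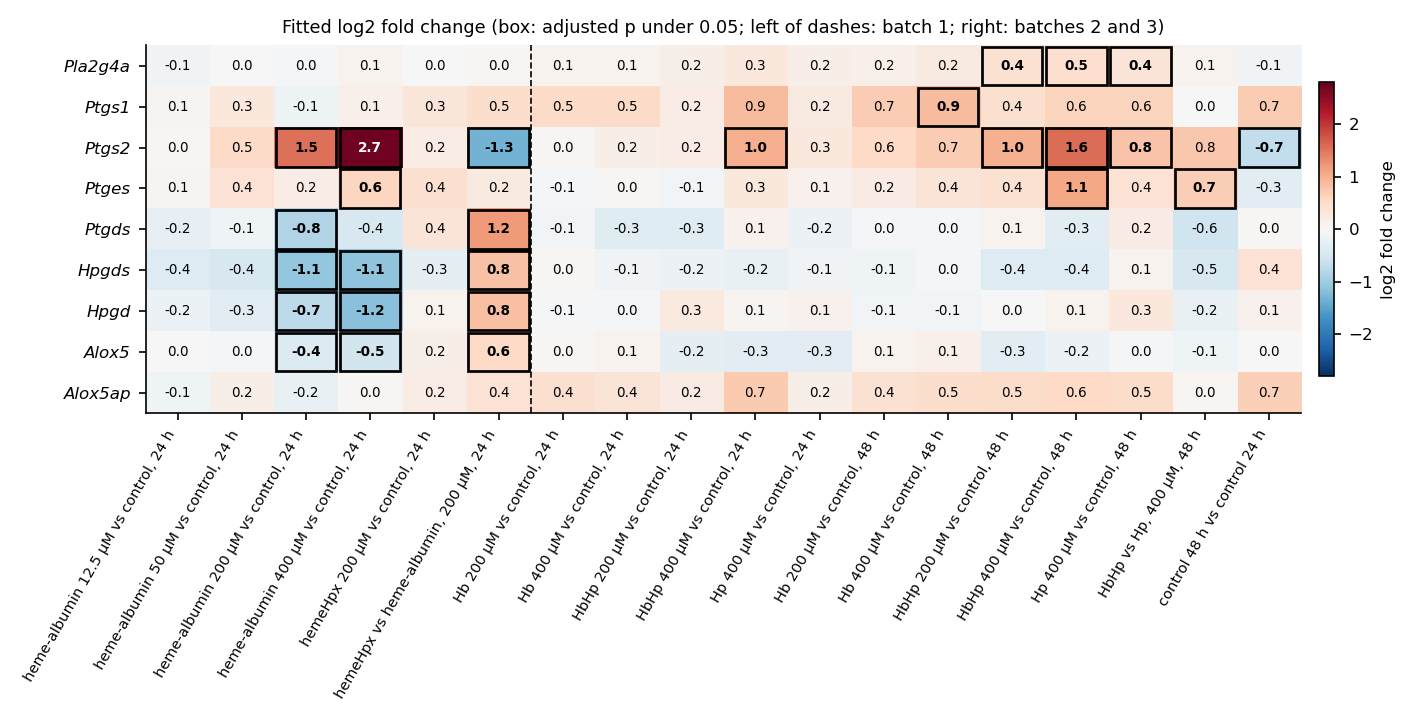
Fitted log2 fold change of the 9 members (rows) in 18 comparisons (columns), batch 1 left of the dashed line and batches 2 and 3 right of it; red is higher, blue is lower, and boxes mark a Benjamini-Hochberg adjusted p under 0.05 by edgeR. Ptgs2 is boxed as higher at 200 and 400 μM heme-albumin (1.54 and 2.73), and at 48 h the boxes for HbHp and Hp fall on Ptgs2, Pla2g4a and, for HbHp at 400 μM, Ptges.

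The fits of batches 2 and 3 had terms for batch and prefix. The members also differed by prefix: 8 of 9 differed between E2 and E1 (68% of all genes did), Ptgs2 lower (log2 -0.54 ± 0.11) and Ptgds, Hpgds and Alox5ap higher (1.07 ± 0.09, 0.97 ± 0.12 and 0.82 ± 0.12), with edgeR, Benjamini-Hochberg adjusted p-values of 1.77e-05, 8.14e-18, 7.3e-12 and 1.1e-08. Between batches 3 and 2 no member differed (17.2% of all genes did), with adjusted p-values of 0.115 or more. All comparisons with control at 1 time share the same controls.

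Hb alone gave few calls. At 24 h no member passed the edgeR test at 200 μM (0.0971% of all genes did) or at 400 μM (0.522%), 1 had an unadjusted p under 0.05 at each dose, and DESeq2 called none. At 48 h none passed at 200 μM (0.31%), with 3 at an unadjusted p under 0.05 and none by DESeq2. At 400 μM 1 did (0.601%, 0.486% higher): Ptgs1, at 6.98 to 38.4 CPM in controls (median 18.3) and 14.2 to 57 CPM with Hb (26.4), with overlapping ranges. Its 1.85-fold change (log2 0.89 ± 0.24 SE, edgeR, Benjamini-Hochberg adjusted p = 0.0487) was called under 4 of 9 alternatives (adjusted p 0.023 to 0.991). Within prefix E1 it was 1.21 on the log2 scale and within E2 it was 0.01. For Ptgs2 at 400 μM and 48 h, 6 of 10 libraries stood above the highest control, with a log2 change of 0.72 ± 0.22 that did not pass (adjusted p = 0.135, edgeR). The difference between the 48 h and the 24 h effect of 200 μM Hb was called for no member (0% of all genes by edgeR), none had an unadjusted p under 0.05 and DESeq2 called none of them.

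With HbHp at 48 h, the fit with batch and prefix terms called Ptgs2 and Pla2g4a higher at 200 and 400 μM, and Ptges at 400 μM. At 24 h no member passed with 200 μM HbHp (1.93% of all genes did), none had an unadjusted p under 0.05 and DESeq2 called none. At 400 μM 1 of 9 did (5.15%, 3.1% higher), Ptgs2, with 27.5, 14.4, 10.3 and 9.86 CPM in the 4 libraries. The 24 h controls were at 6.05 to 26 CPM with a median of 8.91, so the ranges overlapped. The change was 2.03-fold (log2 1.02 ± 0.30 SE, edgeR, Benjamini-Hochberg adjusted p = 0.0264) and was called under 9 of 15 alternatives (3.35e-05 to 0.949). It lost its call without HbHp replicate 1 (log2 0.59), HbHp replicate 2 (1.05) or control replicate 11 (0.96), and within prefix E2 it was 0.33. Replicate 1, at 27.5 CPM, also had the highest summed choroid plexus level of batches 2 and 3 (1992 CPM). Genes of the early activity response were higher in 5 of 8 in this comparison, and their part in the change was not tested.

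At 48 h, 2 of 9 members passed with 200 μM HbHp and 3 of 9 with 400 μM, all higher, each against 11.9% of all genes (7.04% and 7.39% higher). Pla2g4a was at 30.1 to 44.5 CPM in controls (median 38.3), 46.7 to 72.4 with 200 μM (50.6) and 48.8, 51.6, 52.3, 52.6 and 64.1 CPM with 400 μM. No library of either HbHp group overlapped the controls, of which only 2 (40.5 and 42.9 CPM) were E2 like the HbHp libraries. Pla2g4a was itself higher in E2 than in E1 (log2 0.16 ± 0.04 SE), and the share of all genes without overlap was not counted. With HbHp the fitted change was 1.34-fold (log2 0.42 ± 0.09 SE, adjusted p = 0.000521) and 1.38-fold (0.46 ± 0.10, 0.000474), both by edgeR with Benjamini-Hochberg adjustment. Within prefix E2, where only 2 controls exist, it was 0.35 and 0.39 on the log2 scale and did not pass (adjusted p = 0.116 and 0.0953, edgeR, with ranges over the alternatives of 9.39e-06 to 0.213 and 1.37e-05 to 0.242).

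Ptgs2 was at 3.36 to 9.15 CPM in the 48 h controls (median 7.61), of which the 2 of prefix E2 were at 3.36 and 4.55 CPM. It was at 6.54 to 13.6 CPM with 200 μM HbHp (median 8.93) and at 8.10, 10.51, 14.6, 15.4 and 21.2 CPM with 400 μM. Among all controls 3 of 8 and 4 of 5 libraries stood above the highest one, and all 13 stood above both E2 controls. The change was 2.00-fold (log2 1.0 ± 0.27 SE, edgeR, Benjamini-Hochberg adjusted p = 0.00806) and 2.96-fold (1.56 ± 0.29, adjusted p = 6.29e-05). With E2 alone the first was 1.29 on the log2 scale with an adjusted p of 0.0626 by edgeR (all 11 alternatives, 0.000178 to 0.49), and the second was called in 14 of 15 alternatives. At 24 h and 48 h the 200 μM effect differed by 0.79 ± 0.32 for Ptgs2 and 0.26 ± 0.11 for Pla2g4a. This difference was called for no member by edgeR after adjustment (0.0121% of all genes were called), 3 members had an unadjusted p under 0.05 and DESeq2 called none.

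Ptges was at 19.6 to 31 CPM in the 48 h controls (median 25) and at 30.1, 32.7, 43.9, 45.1 and 134 CPM with 400 μM HbHp. The change was 2.13-fold (log2 1.09 ± 0.20 SE, edgeR, Benjamini-Hochberg adjusted p = 3.52e-05). The library at 134 CPM, HbHp replicate 2, also had the highest summed border macrophage (184 CPM) and neutrophil (6.02 CPM) levels of batches 2 and 3, and without it the log2 change was 0.50 (adjusted p = 0.0418, alternatives 2.81e-06 to 0.0796). With 200 μM HbHp Ptges was at 32.2 to 42.7 CPM, above every 48 h control, but its 1.35-fold change did not pass with the prefix term (log2 0.44 ± 0.18, edgeR, Benjamini-Hochberg adjusted p = 0.104) and passed under 3 of 11 alternatives. Microglia markers were called in 0 of 7 with 200 μM HbHp at 48 h and in 1 of 7, lower, with 400 μM. Their summed level was 599 to 4329 CPM in the controls, 2033 to 3356 CPM with 200 μM and 1435 to 3763 CPM with 400 μM. Early activity genes were higher in 2 of 8 and lower in 1 of 8 with 200 μM, and higher in 4 of 8 with 400 μM, and their part in these changes was not tested.

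With Hp alone at 400 μM, the same fit called Pla2g4a and Ptgs2 higher at 48 h. At 24 h no member passed (0.704% of all genes did), 1 had an unadjusted p under 0.05 and DESeq2 called none. At 48 h 2 of 9 passed, both higher, against 10.8% of all genes (4.88% higher). Pla2g4a was at 40.8 to 56 CPM (median 47.8), 9 of 11 libraries above the highest control, with a 1.29-fold change (log2 0.37 ± 0.08 SE, edgeR, Benjamini-Hochberg adjusted p = 0.00216). It was called under 8 of 10 alternatives (adjusted p 0.000254 to 0.694), and within E2 its log2 change was 0.22 and not called. Ptgs2 was at 12.6, 13.3, 14, 14.2 and 29.3 CPM in the 5 libraries of prefix E1 and at 4.19 to 6.34 CPM in the 6 of prefix E2. The E1 libraries stood above all E1 controls (5.51 to 9.15 CPM). Of the 6 E2 libraries, 5 stood above both E2 controls (3.36 and 4.55 CPM). The joint change was 1.75-fold (log2 0.81 ± 0.25, edgeR, Benjamini-Hochberg adjusted p = 0.0224), 1.17 within E1 (adjusted p = 0.000259) and 0.50 within E2 (adjusted p = 0.817), and without Hp replicate 4, the library at 29.3 CPM, it was 0.57 and not called (adjusted p = 0.121).

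HbHp was set against its parts at matched dose and time. Against Hb at 200 μM no member passed at 24 h (0.607% of all genes) or at 48 h (4.98%), with 1 and 2 members at an unadjusted p under 0.05 and 0 and 2 by DESeq2. At 48 h Pla2g4a differed by 0.27 ± 0.09 on the log2 scale, 7 of 8 HbHp libraries above the highest Hb library (edgeR, Benjamini-Hochberg adjusted p = 0.0527, 0.00528 to 0.715 over 9 alternatives). Against Hp at 400 μM none passed at 24 h (0.619%), with 2 at an unadjusted p under 0.05 and none by DESeq2, and 1 of 9 did at 48 h (1.44%, 1.03% higher). This was Ptges, 1.61-fold higher (log2 0.69 ± 0.17 SE, edgeR, Benjamini-Hochberg adjusted p = 0.0184), which without HbHp replicate 2 was 0.10 and not called (adjusted p = 0.81, over 14 alternatives down to 0.00273). Without Hp replicate 4, Ptgs2 was also called (log2 0.96).

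**Figure D5:**
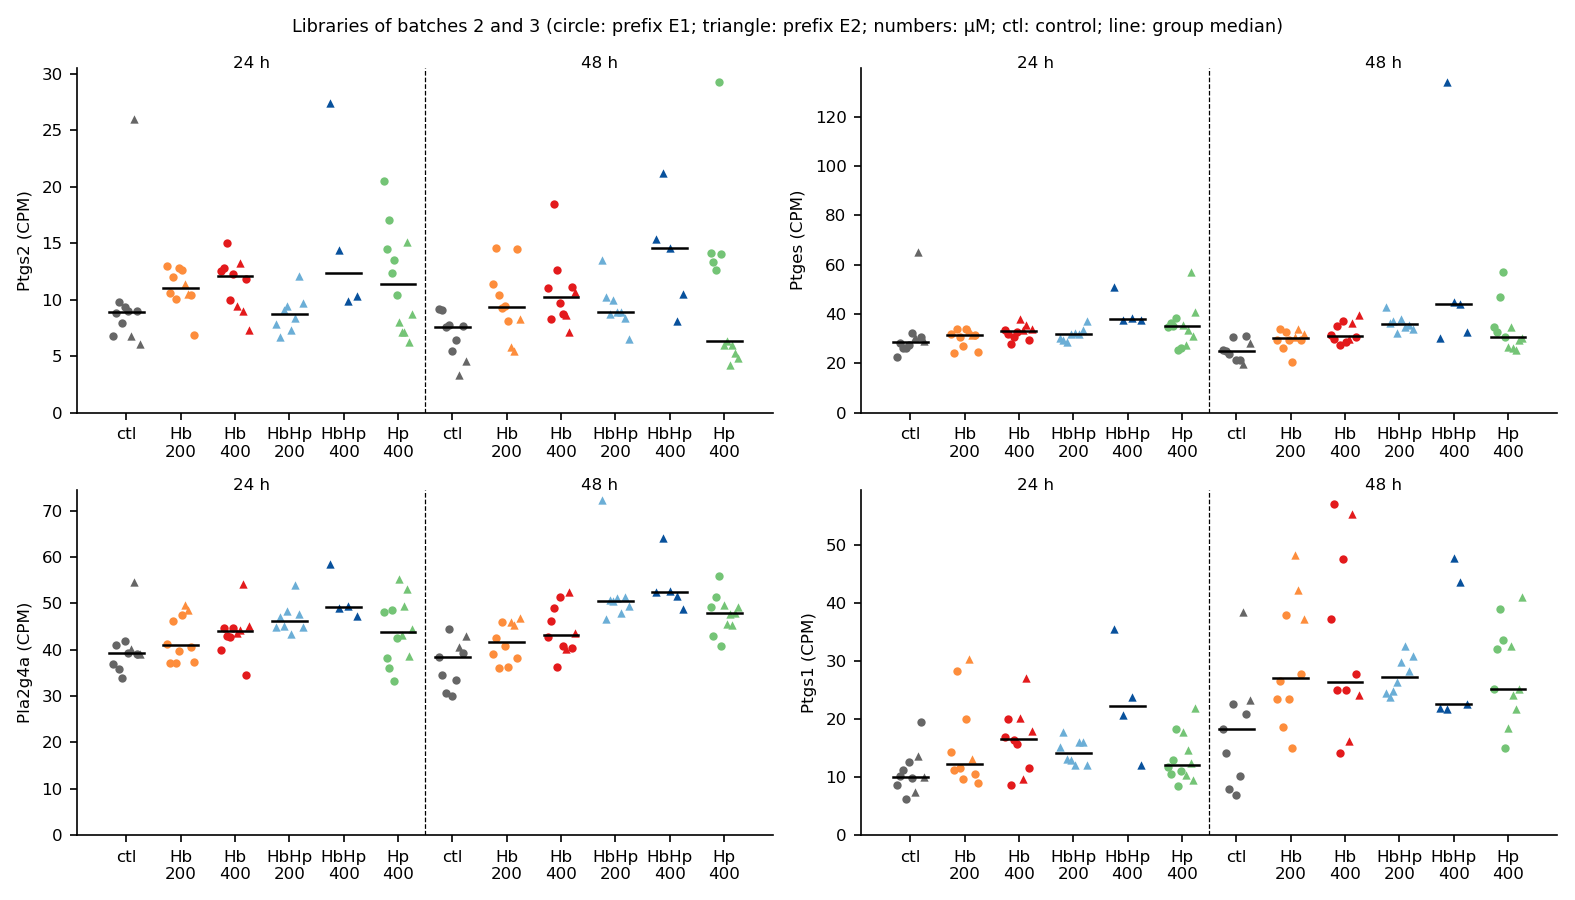
Ptgs2, Ptges, Pla2g4a and Ptgs1 in CPM in each library of batches 2 and 3, with 24 h left and 48 h right of the dashed line in each panel; circles are prefix E1, triangles prefix E2, and lines group medians. All Pla2g4a points of the HbHp groups at 48 h (46.7 CPM or more, all E2) lie above the control points (44.5 CPM or less). Only 2 of these control points are E2. Ptgs2 in the Hp group at 48 h is split by prefix.

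In untreated slices Ptgs2 was lower at 48 h than at 24 h (0.618-fold, log2 -0.69 ± 0.22 SE, edgeR, Benjamini-Hochberg adjusted p = 0.0462), the only 1 of 9 members called, against 4.5% of all genes (2.85% lower). Control replicate 8 at 24 h, an E2 library, was at 26 CPM where the next was at 9.84 CPM, and it had the highest summed endothelial (309 CPM) and leptomeningeal (2996 CPM) levels of batches 2 and 3. Without it the log2 difference was -0.30 and was not called (adjusted p = 0.399, alternatives 0.0235 to 0.627). Ptgs1 and Alox5ap had medians of 10.1 and 14.1 CPM at 24 h and of 18.3 and 19.6 CPM at 48 h, with log2 differences of 0.70 ± 0.24 and 0.66 ± 0.24 that did not pass. Microglia markers were higher at 48 h in 2 of 7.

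The prostaglandin D2 synthases and the leukotriene pair varied widely between libraries of batches 2 and 3 without a call in the main fits. Alox5 was lower with HbHp than with Hb at 200 μM and 48 h (log2 -0.39), called under 3 of 9 alternatives. Against control at 48 h it was -0.29 with 200 μM HbHp, called under 1 of 11. Alox5ap was called under 1 of 11 alternatives in that comparison, 1 of 15 with 400 μM HbHp at 24 h and 1 of 11 between the control times. Hpgds was at 12.5 to 49.6 CPM in the 24 h controls and at 17 to 82.3 CPM in those at 48 h. Its median over the treated groups lay between 27.2 CPM (Hb 200 μM, 24 h) and 54.7 CPM (Hp 400 μM, 48 h). Alox5ap was at 5.84 to 28.4 CPM and 9.10 to 51.6 CPM in the controls, and at 43.9 to 82.7 CPM (median 51.2) with 200 μM HbHp at 48 h, all of prefix E2. The 2 controls of prefix E2 at 48 h were at 50.6 and 51.6 CPM. Over the libraries of batches 2 and 3, which share batch, prefix and treatments, r with the summed microglia level was 0.97 for Hpgds, 0.94 for Alox5ap, 0.78 for Ptgs1, 0.62 for Alox5 and -0.36 for Ptgs2. The choroid plexus sum was 12.9 CPM or less in 46 libraries and 77.9 to 1992 CPM in 61, and Ptgds had a median of 73.5 CPM in the first and 139 CPM in the second set. Its r with that sum was -0.10 within the first and 0.51 within the second, and over all these libraries it was 0.57 with the summed leptomeningeal and 0.55 with the summed oligodendrocyte level.

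Other genes of the pathway were taken from a list of 51, of which 42 were tested in batch 1 and 48 in batches 2 and 3. At 200 μM heme-albumin 5 were higher and 6 lower, where 13.6% of all genes were called, and at 400 μM 9 were higher and 6 lower, where 29% were. With hemeHpx 1 was higher and none lower than control (8.2% of all genes called), and against heme-albumin 10 were higher and 6 lower (25.9%). The list's median log2 fold change was -0.06 at 200 μM and -0.02 at 400 μM, near the -0.01 of all genes. By size, the changes at 200 μM were led by the cysteinyl leukotriene receptor Cysltr1 (log2 -0.88 ± 0.31 SE), the thromboxane synthase Tbxas1 (-0.87 ± 0.24), the microsomal glutathione transferase Mgst2, which can make leukotriene C4 (0.85 ± 0.18), and the dipeptidase Dpep2 (-0.67 ± 0.23), whose reads are uncertain because overlapping gene records share its exons. At 400 μM they were led by the prostaglandin transporter Slco2a1 (1.93 ± 0.47), Mgst2 (1.23 ± 0.17), the secreted phospholipase Pla2g5 (-0.98 ± 0.17) and Cysltr1 (-0.92 ± 0.31). Slco2a1 was at 0.182 to 4.71 CPM in controls and 0.535 to 14 CPM at 400 μM, so the groups overlapped. All 3 transporters on the list were higher at 400 μM, among them the leukotriene C4 exporter Abcc1 (0.91 ± 0.06). Abcc1 was the 1 listed gene called at 50 μM and with hemeHpx against control (0.42 ± 0.06 and 0.22 ± 0.06).

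With 200 μM HbHp 2 listed genes were higher at 24 h, Mgst2 (1.02 ± 0.26 SE) and Abcc1 (0.37 ± 0.10), and none was lower, where 1.93% of all genes were called. At 48 h 8 were higher and none lower (11.9% of all genes called), led by the dipeptidase Dpep1 (1.5 ± 0.44), Mgst2 (1.38 ± 0.27), the leukotriene B4 receptor Ltb4r2 (0.89 ± 0.26) and the prostaglandin E2 receptor Ptger2 (0.85 ± 0.25). Abcc1 (0.54 ± 0.10) and the prostaglandin reductase Ptgr1 (0.53 ± 0.12) were among them. At 400 μM HbHp and 48 h 5 were higher and 2 lower (11.9% of all genes), and with Hp alone 6 were higher and 1 lower (10.8%).

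The genes whose log2 levels followed each member most closely were found over the 60 libraries of batch 1 and, with batch and prefix removed, over those of batches 2 and 3. For Ptgs2 they were Il11, Nars and Ereg (r = 0.94, 0.93 and 0.92 among 14158 genes), and Ereg, Slc7a11 and Fosl1 (0.78, 0.75 and 0.74 among 14116). Ptges was closest to Zc3h12a in both sets (0.82 and 0.79), and in batches 2 and 3 Ptgs2 came next (0.73). Hpgds was closest to Cd180 (0.98) and Tmem106a (0.97), Alox5ap to Itgb2 (0.95) and Vsir (0.96), and Ptgs1 to Prkcd (0.93) and Tifab (0.93). Hpgd was closest to Cntn6 (0.94) and Ppp1r14c (0.82), Alox5 to Sfrp5 (0.91) and Daglb (0.76), Ptgds to Hcn2 (0.92) and Bsg (0.82), and Pla2g4a to Calcrl (0.88) and Nus1 (0.82). Each pair is given as batch 1 first. These values describe libraries that share treatments.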

How the data were processed

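RNA was measured by bulk mRNA sequencing in 188 libraries. The deposited values are whole read counts per Ensembl gene, made by the authors with featureCounts on GRCm39 per the submitters' processing notes. The aligner, the annotation release and the use of strand are not given in the sources used here. Symbols were matched by identifier, and 109 of 25711 identifiers had none. Exon lengths and overlaps came from another annotation release and served only for levels per kilobase and for naming overlaps.

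Of the libraries, 167 were mapped to groups from the labels and 21 were left out, 20 of them because treatment tag and title named different scavengers. No pair of 724 compared libraries was alike within sampling noise. Counts were tested with edgeR 4.0.16 (R 4.3.3, limma 3.58.1) by quasi-likelihood F test after filterByExpr (minimum count 10, minimum total 15) and TMM scaling. Batch 1 (60 libraries, 15554 genes) was fitted without covariates, and batches 2 and 3 (107 libraries, 16473 genes) with terms for batch and prefix. Adjusted p-values are Benjamini-Hochberg over all genes tested, with a threshold of 0.05. Intervals are 95%, the log2 value ± 1.96 SE. The slope is a linear contrast over the 4 heme-albumin group means on log2 dose, without the control. Likeness used log2 CPM (prior count 2) over genes with a mean of at least 1 CPM, marker correlations log2(CPM + 1). The text names all 9 members, up to 4 listed pathway genes with the largest fold change in each of 4 comparisons and other called transporters and reductases chosen after their values were seen, and the closest of 3 like genes per member. Members and gene lists were chosen with earlier results of these data known. The code was tested on simulated data. DESeq2 1.42.0, other scaling, no filter, other terms, replicate blocks and left-out libraries were the alternatives. Figures and summaries used Python 3.11.15.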

Additional observations from a re-analysis of the deposited data

Results flagged for a closer look

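Libraries that stood apart were sought by Dixon's 95% limit in all groups but the Hp groups, which have 12 and 11 libraries. About 1 in 20 groups would exceed it by chance if values were independent and normally spread. Members share libraries, and that spread was not tested. In 144 groups of libraries by member, 23 had a highest or lowest library farther from its neighbor than this limit allows. In batch 1 these were Pla2g4a at 56.9 CPM and Hpgds at 38.8 CPM in heme-albumin 50 μM replicate 5, Ptgs2 at 31 CPM and Ptges at 61.6 CPM in heme-albumin 50 μM replicate 4, and Ptgs1 at 20.2 CPM (replicate 8) and Hpgd at 199.7 CPM (replicate 5) at 12.5 μM. The others of batch 1 were Ptgs2 at 24.7 CPM in control replicate 19 and at 257 CPM in heme-albumin 400 μM replicate 9, Ptgds at 491 CPM in control replicate 13, and Hpgd at 140.4 CPM in heme-albumin 200 μM replicate 9.

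In batches 2 and 3, control replicate 8 at 24 h stood apart for Pla2g4a (54.5 CPM), Ptgs2 (26 CPM) and Ptges (65.2 CPM). HbHp 200 μM replicate 1 at 48 h stood apart for Pla2g4a (72.4 CPM), Ptgds (302 CPM) and Alox5ap (82.7 CPM), and HbHp 400 μM replicate 2 at 48 h for Pla2g4a (64.1 CPM) and Ptges (134 CPM). Single values were Ptges at 50.8 CPM in HbHp 400 μM replicate 1 at 24 h, Ptgs2 at 18.5 CPM in Hb 400 μM replicate 3 at 48 h and at 6.92 CPM, the lowest, in Hb 200 μM replicate 10 at 24 h, Ptgds at 218 CPM in Hb 200 μM replicate 7 at 24 h, and Hpgds at 34.4 CPM, the lowest, in HbHp 200 μM replicate 2 at 48 h.

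The 21 libraries that entered no comparison had a median Ptgs2 of 34.6 CPM of the total count and ranged from 4.14 to 70.3, where controls reached 25.6 CPM at 24 h and 9.44 CPM at 48 h. Their median Pla2g4a was 53.6 CPM of the total count, from 39.7 to 63.8 CPM.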

How the results depend on the processing

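In batch 1 the 5 members called at 200 μM heme-albumin, other than Ptgds (4 of 7 alternatives), and the 5 called at 400 μM kept their calls under all 7 alternatives, and no log2 value of a called member reversed. For hemeHpx against control 1 member was called, Ptges, with the letter of the library name as a term, with the library-name code as a replicate block, with the control and 200 μM groups only, by DESeq2 and without control replicate 13. For HbHp 400 μM at 24 h the count was 3 with the batch term alone, 0 within prefix E2, 0 with the title number as a replicate block, and 0 to 2 over left-out replicates. For Hp at 24 h it was 1 within E1. For Hb 400 μM at 48 h it was 0 under RLE scaling, no filter, the code block, the batch term alone and E2 alone. For HbHp 200 μM at 48 h it was 1 within E2, which was neither Ptgs2 nor Pla2g4a, and 0 with the title block. For HbHp 400 μM at 48 h it was 0 with the title block. For Hp at 48 h it was 1 with the batch term alone or without Hp replicate 4, and 0 within E2 or with the title block. For HbHp against Hb at 48 h it was 1 with the letter term, the batch term alone, or the 200 μM groups with the batch term alone, and 2 with the code block and DESeq2. For HbHp against Hp at 48 h it was 2 within E2, 0 with the title block and 0 to 2 over left-out replicates. For control 48 h against 24 h it was 2 with the letter term, DESeq2 and E2 alone, and 0 with no filter, the batch term alone, the 200 μM groups with the batch term alone, E1 alone and without control replicate 8. The cause of these changes was not tested.

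The labels do not say what a shared number or code means, and the main fits assumed no pairing. Same-numbered libraries had a median correlation of deviations of 0.19 in batch 1 and -0.045 in batches 2 and 3. For same-coded libraries it was 0.25 and 0.12, with 0.57 and 0.53 of code pairs over 0.1, and for pairs of different code -0.013 and -0.0097. These values do not exclude that libraries with the same code share an animal. With the code as a replicate block Ptgds at 200 μM heme-albumin was -0.70 (log2) and not called (edgeR, Benjamini-Hochberg adjusted p = 0.0854).

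Counts over all genes moved by over 1.5 times mainly with the prefix and the blocks. With no filter hemeHpx against control fell from 1276 to 277 genes, HbHp against Hb at 24 h from 100 to 53 and the HbHp time difference from 2 to 1. With the code block heme-albumin 12.5 and 50 μM gave 22 and 198 genes in place of 7 and 72, hemeHpx against control 3706, HbHp 200 and 400 μM at 24 h 210 and 542 in place of 318 and 849, Hp at 24 h 66 in place of 116, HbHp against Hb at 24 h 6, the control times 142 in place of 742 and the HbHp time difference 6 (5 with the letter term). By DESeq2 the counts were 14 at 12.5 μM, 1979 for hemeHpx against control (3486 by edgeR without control replicate 13), 200 for Hp at 24 h, 228 for HbHp against Hb at 24 h, and 2 and 17 for the Hb and HbHp time differences. With the batch term alone they were 7 and 43 for Hb 200 and 400 μM at 24 h (16 and 86 with the prefix term), 570 for HbHp 200 μM and 10 for Hp at 24 h, 940 and 168 for HbHp against Hb and Hp at 24 h, 19 and 55 for Hb at 48 h (51 and 99), 4066 and 3356 for HbHp 200 and 400 μM at 48 h (1959 and 1968), 2327 and 96 for HbHp against Hb and Hp at 48 h (821 and 238) and 375 for the control times. Within E2 they were 0 and 30 for Hb at 24 h, 149 and 324 for HbHp, 16 for Hp, 0 and 163 for HbHp against Hb and Hp, and at 48 h 14 and 36, 646 and 766, 5 (1773 over both prefixes), 54 and 554, with 144 for the control times. With the title block they were 1 and 15 for HbHp and 0 for Hp at 24 h, 1 and 4 for HbHp against Hb and Hp, and at 48 h 161 and 274, 114, 4 and 13, with 461 for the control times. With the 200 μM groups and the batch term alone they were 137 for HbHp and 378 for HbHp against Hb at 24 h, 377 for the control times and 6 for the HbHp time difference. Within E1 they were 41 for Hb 400 μM and 179 for Hp at 24 h, 28 for Hb 200 μM at 48 h and 202 for the control times. Leaving out 1 library gave 322 to 1279 genes for HbHp 400 μM at 24 h, 14 to 298 for HbHp against Hp at 24 h, 115 for HbHp 200 μM at 24 h (control replicate 11), 112 and 127 for HbHp against Hp at 48 h and 1098 for Hp at 48 h (replicate 4).

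HbHp rests on prefix E2, with 3 and 2 controls, of which only 1 at each time was in batch 3 like the HbHp libraries. The HbHp groups at 400 μM had 4 and 5 libraries, so that E2 comparisons have few libraries. Counts of the least abundant members in the shallowest libraries limit their precision.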

Other observations

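The 21 libraries put in no group, 20 of them with a treatment tag and a title that name different scavengers, are given as values only, in CPM of the total count. Ptgs1 was at 11.8 to 61.6 CPM (median 27.8), Ptges at 22.2 to 47.8 CPM (40.6), Ptgds at 59.5 to 289.7 CPM (95.1) and Hpgds at 13.7 to 67.1 CPM (43.5). Hpgd was at 123 to 258 CPM (median 197), Alox5 at 10.1 to 18.6 CPM (13.9) and Alox5ap at 9.38 to 57.7 CPM (32.4).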
